A study of Mus musculus with 18 samples.

Results

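The mitochondrial genome of the mouse encodes 37 genes, and these were the genes examined here in bulk kidney RNA. The members were all genes on chromosome M whose symbol starts with mt-, and comprised 13 protein genes, 2 ribosomal RNA (rRNA) genes, and 22 transfer RNA (tRNA) genes among 78239 genes listed. Each of 18 libraries came from 1 kidney sample of a wild-type CD-1 mouse, an outbred stock, at 6 wk of age. The dams were fed a low-protein diet with 8% protein (LP) or a normal-protein diet with 18% protein (NP) during gestation and lactation, and all offspring ate the NP diet after weaning. The groups held 5 LP and 5 NP males and 5 LP and 3 NP females. All mice had been injected with cationic ferritin, a label of the glomerular filter that is used to count nephrons by imaging. Male kidneys were taken at 90 min and female kidneys at 24 h from the final dose, so sex and collection time cannot be told apart in any comparison of males with females. In bulk RNA, fewer cells of a type and less RNA per cell cannot be told apart either.

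Both strands of the mitochondrial genome are transcribed into long precursors, in which tRNAs sit between most of the coding genes, and the enzymes that cut out the tRNAs thereby free the mRNAs and rRNAs. The mRNAs encode core subunits of the respiratory chain, namely the mt-Nd genes of complex I (NADH dehydrogenase), mt-Cytb of complex III, mt-Co1, mt-Co2, and mt-Co3 of complex IV (cytochrome c oxidase), and mt-Atp6 and mt-Atp8 of complex V (ATP synthase). The other subunits come from nuclear genes. In the kidney, the proximal tubule and the thick ascending limb are rich in mitochondria, which supply the ATP for salt and solute transport.

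Library depth, as reads assigned to genes, ran from 14050486 to 23562411. Kidney markers were present throughout, with Slc34a1 of the proximal tubule at 3551 to 7587 CPM (counts scaled to a fixed total of gene reads per library) and Umod of the thick ascending limb at 1244 to 5539 CPM. The libraries LP female 1, LP female 2, and NP female 3 had the lowest summed level of 8 interferon-stimulated genes, at 123, 157, and 103 CPM, against 643 to 3246 CPM in the other 15 libraries. The comparisons of levels that include them are given with and without them.

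A stretch of the mitochondrial genome has a near-identical copy in the nuclear genome, which bears on how the genes inside it can be counted. In GRCm39, chr1:24650616-24655269 on the minus strand matched positions 6390 to 11042 of chromosome M with 99.94% identity, 2 mismatches, and 1 gap. Of the protein genes, 6 (mt-Co2, mt-Atp8, mt-Atp6, mt-Co3, mt-Nd3, and mt-Nd4l) lay wholly in the matched stretch, together with 5 tRNA genes. Of mt-Co1, 31.3% of the gene lay in it, and of mt-Nd4, 63.6%. The mismatches are shown to make visible how little separates the 2 loci. They are A6393T in mt-Co1 and T9461C in mt-Nd3, with positions counted from 1 on chromosome M and the mitochondrial base first. Each sequence is read in the direction of the mitochondrial gene, and the capital marks the differing base.
mt-Co1, chromosome M: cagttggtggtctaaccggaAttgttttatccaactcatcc
nuclear copy of mt-Co1, chromosome 1: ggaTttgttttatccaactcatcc
mt-Nd3, chromosome M: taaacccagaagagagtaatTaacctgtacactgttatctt
nuclear copy of mt-Nd3, chromosome 1: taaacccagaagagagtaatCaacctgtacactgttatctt
The copy of mt-Co1 begins 3 bases before its mismatch, which is why its sequence is shorter.

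The counting step keeps a read only where it maps to 1 place in the genome and overlaps 1 gene. Every window of 150 bases in these 6 protein genes was within 1 difference of the copy. Their counts were between 0 and 238 per library, whereas mt-Co1 alone had 284386 to 897251. Over all libraries mt-Co3 had 2074 reads, mt-Co2 had 1761, mt-Atp6 had 1321, mt-Nd3 had 234, mt-Nd4l had 170, and mt-Atp8 had 9. The pseudogenes annotated in the nuclear copy also had few reads, with 3438 over all libraries for Gm28661 (the copy of mt-Co2), 3232 for Gm28437 (mt-Co3), 3137 for Gm29216 (mt-Co1), 1451 for Gm28439 (mt-Nd4), 434 for Gm10222 (mt-Nd4l), and 0 for Gm28438 (mt-Nd3). Reads that mapped to several places were 5.92 to 12.6% of all reads, and the counts do not say where those reads lay, so the part of the copy in these low counts was not tested. The values of these 6 genes are therefore uncertain, and those of mt-Co1 and mt-Nd4 rest on the parts of the genes outside the copy.

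The tRNA genes were almost without reads in the count used, which bears on how the mitochondrial share should be read. Of the 22 genes, 16 had 0 counts in every library. This allows up to 0.127 to 0.214 CPM of countable fragments, depending on the library (3 counts of its total, counting error only). It sets no limit on the level of their RNA, because fragments that also overlap another gene are left out. Among 5 others, mt-Tq had 13 reads over all libraries, mt-Tc had 7, and mt-Tf, mt-Tm, and mt-Te had 1 each. The exception was mt-Tp, the tRNA for proline, with 859 to 2358 counts per library and 25320 in all. Its sequence (chromosome M, 15356 to 15422, minus strand) is given because it was the only tRNA gene that could be compared between groups.
mt-Tp: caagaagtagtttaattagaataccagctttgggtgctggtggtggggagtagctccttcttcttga
The tRNA genes are 59 to 75 bases long, and 20 of the 22 had fewer than 40 bases to the genes on both sides. mt-Tp borders the non-coding stretch of 877 bases, and so does mt-Tf on the other side of it.

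The count without regard to strand leaves out fragments that overlap a pair of genes, and the mitochondrial genes abut or overlap one another. The counts made for each strand separately show such fragments only for genes on opposite strands. The library kit does not mark strand, so such a fragment is then assigned to the gene on either strand by chance. A fragment over neighbours on the same strand is left out of the stranded counts too. mt-Te had 1 read in the count without strand but 14925 and 14220 in the stranded counts, and mt-Tq had 13 but 8000 and 8296. Of the tRNA genes with 0 counts, mt-Ts1 had 3990 and 4148 in the stranded counts and mt-Ty had 2681 and 2706. Others, such as mt-Tv, had 0 there too. For mt-Nd6, the only protein gene on the minus strand, the stranded counts summed to 1.93 times the unstranded count, and for mt-Nd5, whose end overlaps that of mt-Nd6, to 1.19 times. For mt-Nd1, mt-Nd2, mt-Co1, mt-Nd4, and both rRNA genes the ratio was 1.00, which leaves fragments shared with same-strand neighbours uncounted. Inside the nuclear copy it was 1.94 for mt-Co2, 2.10 for mt-Atp6, and 1.67 for mt-Co3, and the reason was not tested. Reads from mt-Nd5 and mt-Nd6 cannot be told apart by strand.

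The libraries were made from poly(A)-selected RNA, and in some mitochondrial mRNAs the tail is also part of the stop codon. In the reference sequence, 10 of the 13 protein genes as annotated ended in a complete stop codon. mt-Co3, mt-Nd4, and mt-Cytb ended in a single T, to which the added A bases complete TAA. The annotated stop codons of mt-Nd1 and mt-Nd2 overlap the tRNA genes mt-Ti and mt-Tw, and where these mRNAs end was not examined. The last 18 bases of mt-Co3, mt-Nd4, and mt-Cytb are shown with those of mt-Co1, with the encoded part of the stop codon in capitals.
mt-Co3: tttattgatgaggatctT
mt-Nd4: ttacaggcctgacaataT
mt-Cytb: tactaaaattatatccaT
mt-Co1: tatgtaaaagtaaaaTAA

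Of 24603002 mitochondrial reads over all libraries, 99.9% fell on 9 genes. Per kilobase of gene, mean levels over the 18 libraries were 18648 CPM for mt-Co1, 12561 for mt-Cytb, 11631 for mt-Nd1, 6947 for mt-Nd2, 5952 for mt-Nd4, 3614 for mt-Nd5, and 2751 for mt-Nd6. Divided by the bases outside the nuclear copy, the levels of mt-Co1 and mt-Nd4 were 27129 and 16339 CPM per kilobase. Reads that reach across the edge of the copy can count too, and only 502 bases of mt-Nd4 lie outside it. Another nuclear match, of 100% identity, also overlapped mt-Nd4. The order of mt-Nd4 and mt-Cytb is therefore uncertain. The rRNA genes mt-Rnr1 and mt-Rnr2 were at 480 and 488 CPM per kilobase, below the 7 mRNAs. rRNAs of mitochondria carry very short tails, and poly(A) selection retains them poorly, so this order describes the libraries. mt-Tp was at 1215 CPM per kilobase, but it is only 67 bases long, and reads that reach past its ends count too. Its value per kilobase is therefore not comparable with those of long genes. In all, 13 members had at least 10 counts in every library and were tested: mt-Rnr1, mt-Rnr2, mt-Nd1, mt-Nd2, mt-Co1, mt-Co2, mt-Atp6, mt-Co3, mt-Nd4, mt-Nd5, mt-Nd6, mt-Cytb, and mt-Tp. The other 24 members were not tested.

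**Figure D1:**
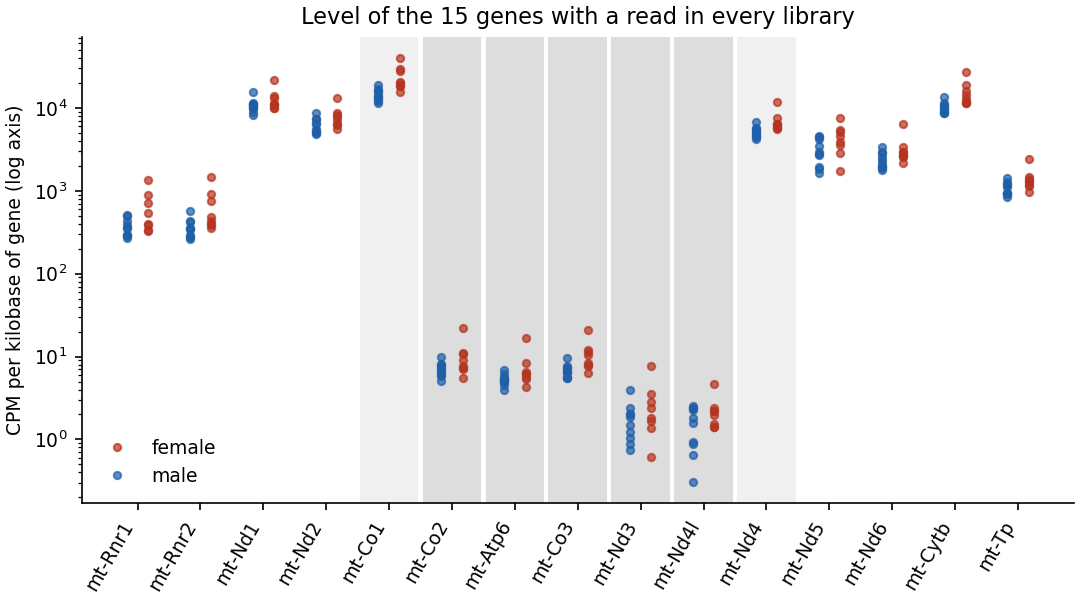
Level of the 15 mitochondrial genes with a read in every library, in CPM per kilobase of gene on a log axis, in genome order. Each point is 1 library (blue, 10 males; red, 8 females); dark grey marks genes wholly, and light grey genes partly, inside the nuclear copy, and the 5 dark grey genes lie far below all others.

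Mitochondrial transcripts took up a larger part of the library in females than in males, and most of the spread lay in 3 female libraries. The share of gene reads on the 37 genes was 6.88, 8.92, 6.04, 5.72, and 5.57% in the 5 LP males. It was 5.47, 7.61, 7.25, 6.62, and 5.69% in the 5 NP males. In LP females it was 11.3, 10.4, 8.04, 7.42, and 7.40%, and in NP females 6.74, 8.70, and 16.5%. The 2 diet groups overlapped in each sex. The 3 highest shares of the series belonged to NP female 3, LP female 1, and LP female 2, the same libraries that had the lowest interferon-stimulated levels, and 6 of the 10 males lay below the lowest female. The 95% Wilson interval of each share was at most ±0.0191 percentage points, which covers counting error only.

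By group, the share was 6.63% ± 1.38 in LP males (SD, n = 5), 6.53% ± 0.939 in NP males (n = 5), 8.93% ± 1.84 in LP females (n = 5), and 10.6% ± 5.15 in NP females (n = 3). LP minus NP was 0.0958 percentage points in males and -1.71 in females, in each sex less than the pooled SD within groups (1.18 and 3.33). Without NP female 3 the difference in females changed sign, to 1.21 percentage points. Males minus females was -2.99 percentage points over all libraries and -2.0 without NP female 3. The 5 females other than NP female 3, LP female 1, and LP female 2 had 7.66% ± 0.743, against 6.58% ± 1.11 in the 10 males. These females lay within the range of the males, 5.47 to 8.92%, but its upper end was LP male 2 alone. The next male was at 7.61%, below NP female 2 (8.70%) and LP female 3 (8.04%).

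**Figure D2:**
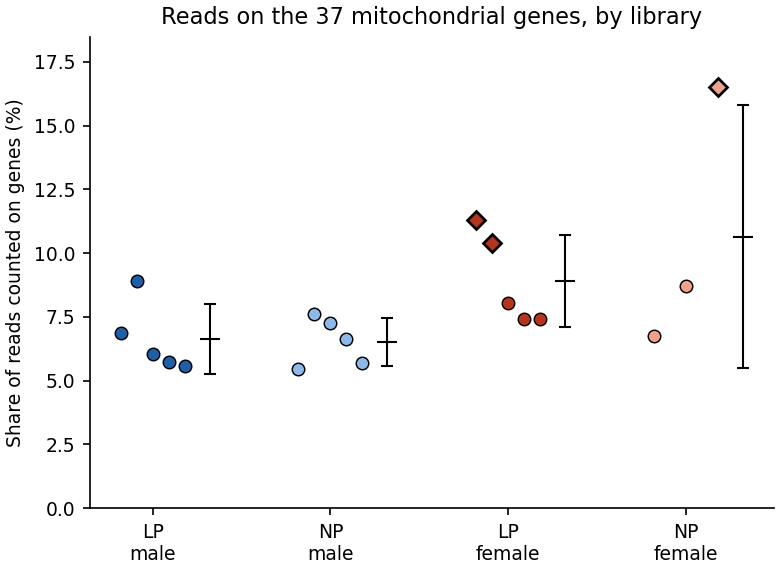
Share of reads counted on genes that fell on the 37 mitochondrial genes, in percent, for each of the 18 libraries by maternal diet and sex. Points are libraries, diamonds are LP female 1, LP female 2, and NP female 3, and bars show the group mean ± SD; the diamonds, at 10.4 to 16.5%, are the highest of the series.

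Some further measures set these 3 libraries apart from the other females, and the part of these in the mitochondrial share was not tested. The summed level of 7 glucocorticoid-responsive genes was 347 and 359 CPM in LP female 1 and LP female 2 and 655 CPM in NP female 3, against 1349 to 1704 CPM in the other 5 females. In males it was 621 to 994 CPM, a range that holds the value of NP female 3. The share of multimapped reads was 12.6% in NP female 3, 8.91% in LP female 1, and 7.92% in LP female 2, against 5.92 to 7.78% in the other 15 libraries. Mitochondrial reads that also match the nuclear copy can be among the multimapped reads, so this measure may not be independent of the mitochondrial share. Of these 3 libraries, NP female 3 alone had a high summed level of 7 adipose genes, at 203 CPM. Among these genes was Ucp1 of brown fat, at 88.9 CPM. LP female 5, outside these 3 libraries, was next in adipose level with 115 CPM. In NP female 3, all 13 tested members were at their highest of the series, from 1.37 times (mt-Co1) to 2.01 times (mt-Co2) the level in the next highest library. The ratio of mitochondrial reads to reads of 75 nuclear genes for subunits of complexes I, III, IV, and V was 3.70 ± 0.831 in males (SD, n = 10) and 4.71 ± 1.13 in females (n = 8). In LP female 1, LP female 2, and NP female 3 it was 5.00 to 6.61, and in the other females 2.89 to 5.27, with overlap. The nuclear subunits themselves summed to 20858 to 24938 CPM in these 3 libraries, to 16476 to 23339 CPM in the other females, and to 15997 to 23149 CPM in males, again with overlap.

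Maternal diet was compared within each sex to ask whether early protein restriction left a mark on mitochondrial transcripts of the grown kidney. In males none of the 13 tested members passed the test. The edgeR quasi-likelihood test called 0 of 13, also at an unadjusted p under 0.05, and DESeq2 called 0. Over all genes edgeR called 5 of 13181, or 0.0379%, and 3.84% had an unadjusted p under 0.05. Log2 fold changes (LP over NP) of the members ran from -0.09 to 0.18 with a median of 0.00. The 3 members with the smallest p were mt-Rnr2 (0.18, SE 0.21), mt-Rnr1 (0.17, SE 0.21), and mt-Co3 (0.10, SE 0.19), each with an edgeR adjusted p of 1.000. mt-Rnr2, the large-subunit rRNA, was at 441, 905, 688, 548, and 441 CPM in LP males and at 462, 660, 566, 416, and 546 CPM in NP males. The groups overlapped, and without LP male 2, the highest of the males, its log2 fold change was -0.02.

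In females all 13 tested members had a log2 fold change below 0, from -0.64 to -0.19 with a median of -0.38, and none passed the test. edgeR called 0 of 13, also at an unadjusted p under 0.05, and DESeq2 called 0. Over all 13510 genes edgeR called 0, or 0%, while 4.17% had an unadjusted p under 0.05. The smallest p values were those of mt-Co2 (-0.64, SE 0.39), mt-Atp6 (-0.58, SE 0.41), and mt-Nd4 (-0.38, SE 0.28), with an edgeR adjusted p of 0.886 each; mt-Co2 and mt-Atp6 are among the genes inside the nuclear copy. mt-Nd4, a core subunit of complex I, was at 10501, 8909, 8536, 7965, and 7599 CPM in LP females and at 8183, 8927, and 16276 CPM in NP females. NP female 3 alone stood above the LP range. Without it, all 13 log2 fold changes were above 0 (0.06 to 0.43), and without all 3 libraries with low interferon-stimulated levels they ran from -0.16 to 0.21, with 0 members called in either case, beside 0% and 0.00705% of all genes.

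Within the mitochondrial reads, mt-Co1, the catalytic core of complex IV, took 39.8, 40.9, 38.1, 38.3, and 38.1% in LP females and 36.0, 36.9, and 37.6% in NP females. These ranges did not overlap, but the difference of 2.19 percentage points did not pass an exact two-sided permutation test (p = 0.0714, where the smallest p this design allows is 0.0179). No other member's share of mitochondrial reads separated the diet groups in either sex. Whether the sexes differed in their response to maternal diet was tested by an interaction term, for which edgeR called 0 of the 13 members, 0 also at an unadjusted p under 0.05 and 0 by DESeq2. Of 12665 genes, 0.0158% were called and 4.02% had an unadjusted p under 0.05. The smallest p values were those of mt-Co2 (females minus males -0.70, SE 0.45), mt-Co3 (-0.58, SE 0.41), and mt-Rnr1 (-0.71, SE 0.53), with an edgeR adjusted p of 0.977 each. Without NP female 3 all 13 interaction values were above 0, from 0.05 to 0.50, and without the 3 libraries they ran from -0.34 to 0.28. In both fits edgeR called 0 members, 0 also at an unadjusted p under 0.05, beside 3.30% and 3.37% of all genes at that unadjusted p.

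Males were then compared with females over both diets. All 13 members had a lower mean in males, and 3 passed the test: mt-Co1, mt-Cytb, the cytochrome b of complex III, and mt-Rnr2. Of all 12665 genes tested, 19.5% were called lower and 18.5% higher in males, so 3 of 13 was close to the background. The log2 fold changes (male over female) were -0.58 for mt-Co1 (SE 0.18, edgeR adjusted p = 0.0157), -0.48 for mt-Cytb (SE 0.17, edgeR adjusted p = 0.0310), and -0.73 for mt-Rnr2 (SE 0.27, edgeR adjusted p = 0.0355). Exact permutation of sex within diet gave two-sided p values of 0.00510, 0.00978, and 0.0409 for the normalized level of these 3 genes. mt-Rnr1, mt-Co3, and mt-Nd4 passed at an unadjusted p under 0.05 only, with log2 fold changes of -0.62, -0.51, and -0.32.

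mt-Co1 was at 24751, 29323, 19861, 20697, and 20658 CPM in LP males and at 18517, 25848, 24886, 22829, and 17796 CPM in NP males. It was at 45148, 42719, 30601, 28411, and 28187 CPM in LP females and at 24247, 32137, and 61984 CPM in NP females. The groups overlapped in each diet, by LP male 2 among LP mice and by NP female 1 among NP mice. mt-Cytb was at 12521, 15403, 10577, 10350, and 10019 CPM in LP males and at 10058, 13099, 12124, 11536, and 11175 CPM in NP males. It was at 21816, 18374, 14699, 13146, and 13330 CPM in LP females and at 13172, 16275, and 30976 CPM in NP females. The lowest NP female (13172 CPM) was close to the highest NP male (13099 CPM). CPM lack the scaling factors used in the tests, which were 1.08 for NP female 1 and 0.98 for NP male 2. A larger factor lowers the normalized level. mt-Rnr2 was at 1184, 1457, 628, 686, and 566 CPM in LP females and at 759, 618, and 2333 CPM in NP females, and only LP female 1, LP female 2, and NP female 3 exceeded the highest male.

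The calls in level rested on these 3 libraries, which also had the highest mitochondrial shares, so that leaving them out lowers the female mean. Without them 0 of 13 members were called, 0 also at an unadjusted p under 0.05, and the log2 fold changes ran from -0.23 to 0.14 with a median of -0.01, while 19.6% of all 12949 genes were still called lower in males. mt-Co1 was then at -0.23 (SE 0.13, edgeR adjusted p = 0.176), mt-Cytb at -0.15 (SE 0.12, edgeR adjusted p = 0.311), and mt-Rnr2 at -0.07 (SE 0.17, edgeR adjusted p = 0.764). Without NP female 3 alone 0 members were called, with mt-Co1 at -0.37 (SE 0.14, edgeR adjusted p = 0.0514). The number called was 1 without LP female 1, 5 without LP female 5 or NP female 2, and 6 without LP male 2. mt-Cytb lost its call without LP female 1 (edgeR adjusted p = 0.0577) and without NP female 3 (0.103). mt-Rnr2 lost its call without any of LP male 1, LP male 5, LP female 1, LP female 2, NP male 1, NP male 4, or NP female 3, with an edgeR adjusted p of at most 0.181.

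**Figure D3:**
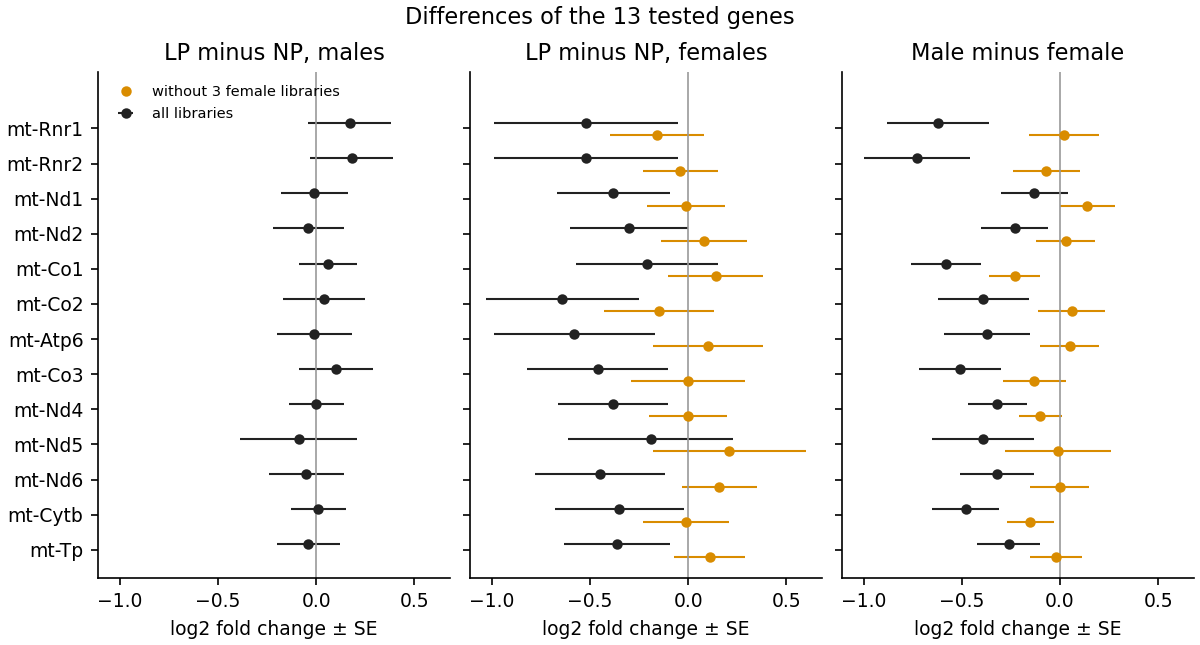
Log2 fold change ± SE from edgeR for the 13 tested mitochondrial genes in LP against NP males, LP against NP females, and males against females. Black points use all libraries and orange points leave out LP female 1, LP female 2, and NP female 3; without these, the male minus female values lie between -0.23 and 0.14.

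The makeup of the mitochondrial reads differed between the sexes in a way that kept its direction without these libraries. Males had a smaller share of mt-Co1 and larger shares of mt-Nd1 and mt-Nd2, both membrane subunits of complex I. These shares add up to 100% within each library, so a lower share of 1 gene raises those of others, and no normalization between libraries enters them. mt-Co1 took 36.0, 32.9, 32.9, 36.2, and 37.1% in LP males and 33.8, 34.0, 34.3, 34.5, and 31.3% in NP males, each below every female of the same diet. Averaged within diet, males were 3.70 percentage points below females (over both diets 34.3% ± 1.75, n = 10, versus 38.2% ± 1.56, n = 8), and permuting sex within diet gave p = 7.09e-05, the smallest p this exact two-sided test can give. The widest 95% Wilson interval of a mt-Co1 share was ±0.101 percentage points.

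mt-Nd1 took 14.4, 16.7, 17, 13.7, and 15.3% in LP males and 17.5, 14.4, 14.4, 14.6, and 18.8% in NP males. In LP females it took 11.7, 12.2, 11.8, 14.2, and 12.9%, and in NP females 15.4, 12.3, and 12.8%. Averaged within diet, males were 2.66 percentage points higher (exact two-sided permutation p = 0.00354), with overlap in both diets. mt-Nd2 took 9.75, 10.01, 9.53, 9.43, and 9.09% in LP males and 9.53, 9.90, 10.53, 10.19, and 9.41% in NP males. In LP females it took 8.02, 8.12, 9.27, 8.65, and 8.86%, and in NP females 8.51, 9.19, and 8.33%. Averaged within diet, males were 1.09 percentage points higher (exact two-sided permutation p = 2.13e-04), and each NP male was above each NP female.

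The shares were tested for all 13 members, and these exact p values were not adjusted for that number. The only other member with such a p under 0.05 was mt-Tp. It was at 0.110% ± 0.00866 in males (n = 10) and 0.0981% ± 0.00864 in females (n = 8, exact two-sided permutation p = 0.0189). Since mt-Nd1, mt-Nd2, and mt-Tp had not passed in level, they were named after their values were seen. Without LP female 1, LP female 2, and NP female 3, males were 3.03 percentage points lower for mt-Co1 (exact permutation p = 0.00425), 2.26 higher for mt-Nd1 (exact permutation p = 0.0357), and 0.835 higher for mt-Nd2 (exact permutation p = 0.00340). mt-Tp did not pass without them (exact permutation p = 0.156). The share of mt-Cytb was 17.8% ± 0.814 in males (n = 10) and 18.5% ± 0.708 in females (n = 8), a difference that did not pass (exact permutation p = 0.0770).

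**Figure D4:**
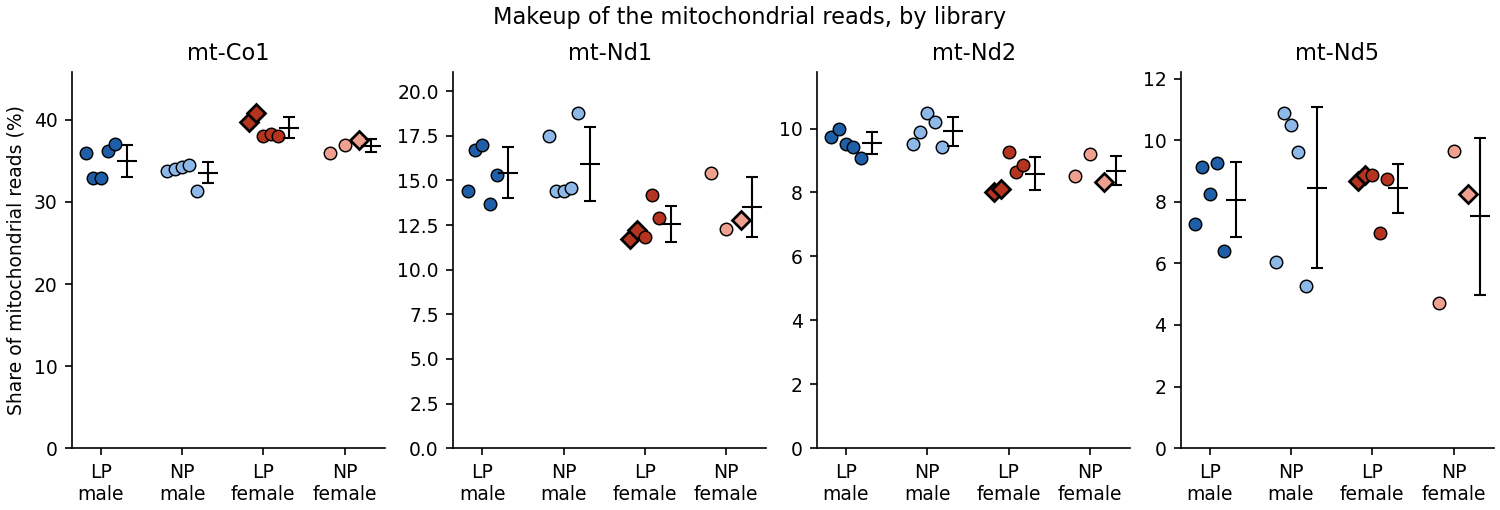
Share of all mitochondrial reads, in percent, taken by mt-Co1, mt-Nd1, mt-Nd2, and mt-Nd5 in each of the 18 libraries, by maternal diet and sex. Points are libraries, diamonds are LP female 1, LP female 2, and NP female 3, and bars show the group mean ± SD; mt-Co1 lies lower and mt-Nd1 and mt-Nd2 lie higher in males, while mt-Nd5 spreads from 4.70 to 10.9% with no separation of groups.

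Base content differed between these genes and cell markers differed between the sexes, and the part of either in the makeup of the reads was not tested. The G and C content was 39.9% in mt-Co1 and 39.1% in mt-Cytb, the highest of the tested mRNAs, and 37.6% in mt-Nd1 and 35.7% in mt-Nd2. Markers of several nephron segments were called lower in males, namely 4 of 6 for the thick ascending limb, 4 of 4 for the distal convoluted tubule, 3 of 5 for principal cells, 5 of 5 for intercalated cells, and 5 of 5 for podocytes, beside 19.5% of all genes. Of 11 proximal tubule markers, 3 (27.3%) were called higher, beside 18.5% of all genes, and 0 lower. Without LP female 1, LP female 2, and NP female 3 the numbers called lower were 6 of 6, 4 of 4, 2 of 5, 5 of 5, and 5 of 5 in the same order, beside 19.6% of all genes. Of the proximal tubule markers, 3 were then called higher and 2 lower, namely Lrp2 (log2 fold change -0.54, SE 0.12, edgeR adjusted p = 0.00239) and Cubn (-0.31, SE 0.10, edgeR adjusted p = 0.0190), both receptors for protein uptake. Their summed levels were 3158 to 5804 CPM in males and 3386 to 10683 in females for the thick ascending limb, and 20133 to 26144 and 14254 to 22267 CPM for the proximal tubule. Those of the distal convoluted tubule were 569 to 1101 CPM in males and 1283 to 1864 in females, without overlap. The intercalated cell markers summed to 135 to 183 CPM in males and 215 to 346 in females, also without overlap.

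The nuclear genes that act on the mitochondrial genome were examined beside its transcripts. For diet, edgeR called 0 of 18 tested genes of mitochondrial transcription and replication in males and 0 of 19 in females, with 0 and 1 at an unadjusted p under 0.05. It also called 0 of 27 genes of mitochondrial RNA processing and stability in each sex, with 0 at an unadjusted p under 0.05, and 0 of 12 regulators of mitochondrial biogenesis, again with 0 at an unadjusted p under 0.05. Of 74 tested nuclear subunits of complexes I, III, IV, and V, 0 were called for diet in either sex, with 0 in males and 4 in females at an unadjusted p under 0.05. Their median log2 fold change was -0.06 in males and -0.29 in females, beside -0.00 and -0.01 over all genes and 0.00 and -0.38 over the 13 mitochondrial genes. The size of both medians in females depended on NP female 3, which had the highest mitochondrial share and the highest sum of nuclear subunits. Without it the median was 0.19 over the mitochondrial genes and -0.03 over the nuclear subunits, beside 0.01 over all genes. Without all 3 libraries with low interferon-stimulated levels it was 0.00 and -0.11, beside -0.01. The median over the nuclear subunits thus stayed below 0 in both cases. In both cases edgeR called 0 of 74 nuclear subunits and 0 genes of the other 3 lists, with 1 nuclear subunit and at most 1 gene of another list at an unadjusted p under 0.05. Over all genes 2.86% and 4.44% had an unadjusted p under 0.05.

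Between the sexes, 18.5% of all genes were called higher and 19.5% lower in males. Of 18 tested transcription and replication genes, 3 (16.7%) were called higher and 1 lower in males, close to the share of all genes for the higher calls. The 3 with the smallest p were Tfam, which packages mitochondrial DNA and starts transcription (log2 fold change 0.29, SE 0.06, edgeR adjusted p = 6.47e-04), Polrmt, the mitochondrial RNA polymerase (0.28, SE 0.06, edgeR adjusted p = 0.00253), and Tefm, its elongation factor (0.41, SE 0.10, edgeR adjusted p = 0.00277). Of 27 RNA processing and stability genes, 9 (33.3%) were called higher and 1 lower. Those with the smallest p were Fastkd2 (0.51, SE 0.08, edgeR adjusted p = 5.82e-05) and Tbrg4 (0.31, SE 0.06, edgeR adjusted p = 3.18e-04), which bind mitochondrial RNA, and Elac2, which cuts precursors at the end of tRNAs (0.42, SE 0.08, edgeR adjusted p = 6.31e-04). Without LP female 1, LP female 2, and NP female 3 the numbers called higher were 3 of 18 and 8 of 27, with 0 lower in both lists, beside 18.4% of all genes called higher.

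Of 12 biogenesis regulators, 1 (8.33%) was called lower in males and 0 higher, beside 19.5% and 18.5% of all genes. It was Ppargc1a, a coactivator of mitochondrial biogenesis (log2 fold change -0.46, SE 0.14, edgeR adjusted p = 0.0138). Without the 3 female libraries, 2 (16.7%) were called higher and 3 (25.0%) lower, beside 18.4% and 19.6% of all genes. Of 74 nuclear subunits, 4 (5.41%) were called higher and 4 lower, a smaller share in each direction than among all genes, with a median log2 fold change of -0.12, beside -0.39 over the 13 mitochondrial genes and -0.05 over all genes. The smallest p values were those of Ndufa10 (0.26, SE 0.08, edgeR adjusted p = 0.0145) and Ndufv3 of complex I (0.40, SE 0.13, edgeR adjusted p = 0.0189), both higher in males, and Cox6c of complex IV, lower in males (-0.45, SE 0.15, edgeR adjusted p = 0.0214). Without the 3 libraries 4 were called higher and 0 lower, and the median was 0.04.

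Among the abundant mRNAs, mt-Nd5, the longest gene of the mitochondrial genome, varied most between libraries as a share of mitochondrial reads. Its coefficient of variation over the 18 libraries was 21.2%, against 14.2% for mt-Nd1, 8.49% for mt-Nd4, 7.16% for mt-Co1, and 4.51% for mt-Cytb. Only the rRNAs varied more, at 28.4% for mt-Rnr1 and 24.4% for mt-Rnr2. The share of mt-Nd5 was 7.27, 9.13, 8.26, 9.25, and 6.41% in LP males and 6.03, 10.9, 10.5, 9.61, and 5.27% in NP males. It was 8.69, 8.87, 8.87, 7.0, and 8.75% in LP females and 4.70, 9.64, and 8.26% in NP females. The lowest values were those of NP female 1, NP male 5, and NP male 1, and the groups overlapped in each comparison.

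Levels of long transcripts were set beside the mt-Nd5 share, and the orders of the libraries matched in part. The median log2 deviation from the mean of all libraries was taken over 3244 nuclear protein genes with transcripts longer than 5000 bases. It was lowest in NP male 5 (-0.33) and NP male 1 (-0.28), and it was -0.06 in NP female 1. In NP male 2 and NP female 2, with 10.9 and 9.64% mt-Nd5, it was 0.09 and 0.35, the latter the highest of the series. LP male 3 at -0.17, NP female 3 at -0.11, and LP male 2 at -0.09 were lower than NP female 1 and had 8.26, 8.26, and 9.13% mt-Nd5. LP male 1, with 7.27%, was at 0.03. Over 1226 genes with transcripts shorter than 1500 bases the deviations were 0.22, 0.02, and 0.36 in the 3 libraries with the lowest mt-Nd5 share and -0.19 in each of NP male 2 and NP female 2, and it was highest, at 0.58, in NP female 3. These lengths were chosen after the data had been seen, and whether RNA integrity has a part in the mt-Nd5 share was not tested.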

How the data were processed

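Poly(A)-selected, non-directional kidney RNA-seq libraries of 18 mice were analysed, 1 per mouse, from a piece of the left kidney by the methods (the design text names a whole kidney). The authors used STAR (version not given in the sources used here) to align the reads to GRCm39, with GENCODE vM36 as annotation, and the deposited values are raw read counts per gene, counted by STAR. Groups were taken from the labels. The counts without regard to strand were used; totals of unassigned reads were left out of library sizes and tests. Gene symbols came from GENCODE vM39, which held 78168 of the 78239 gene IDs.

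Shares and CPM were computed on reads counted on genes (14050486 to 23562411 per library). A gene was tested where every library of the comparison had 10 or more counts, in edgeR 4.0.16 under R 4.3.3 (TMM, quasi-likelihood F-test, p-values adjusted by Benjamini-Hochberg over all tested genes); a call is an adjusted p under 0.05. The SE was derived from the fold change and the F statistic. The sex comparison had diet as a covariate. An exact two-sided permutation of the labels was run for each member, and its p was not adjusted for the number of members. The mitochondrial share, a sum over the members, was not tested. The sequence of chromosome M was compared with the nuclear genome with blastn 2.17.0 and a word size of 28. The edgeR steps were tested on simulated data.

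Members, gene lists, and the 3 female libraries left out in places were chosen with earlier results of these data known. Full statistics are given for members with an adjusted p under 0.05 or, where fewer than 3 passed, the 3 with the smallest p; from other lists at most 3 genes are named. Alternatives were DESeq2 1.42.0 (size factors, Wald test), no filter, scaling on genes outside chromosome M, other denominators, and leaving out libraries. Replicate numbers did not pair the samples (correlations of deviations -0.268 to 0.296 in males and -0.571 to -0.368 in females), and no 2 libraries of a group agreed within sampling noise. By the study's account, its adult mice came from fewer litters than the larger groups had mice, so some replicates were probably littermates. The litter of each library is not given in the sources used here, and p-values measure the spread between these mice.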

Additional observations from a re-analysis of the deposited data

Results flagged for a closer look

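Dixon's test for a value far from the rest of its group was run on 84 sets of 5 libraries, and chance flags about 1 in 20 sets. It singled out 4 values. NP male 5 had the lowest share of mt-Co1 among mitochondrial reads, at 31.3%, with the other NP males at 33.8 to 34.5%. LP female 4 had 7.0% of its mitochondrial reads on mt-Nd5, with the other LP females at 8.69 to 8.87%. LP female 3 had 0.00467% on mt-Co2, with the other LP females at 0.00664 to 0.00711%, and LP male 2 had 4.63 CPM of mt-Atp6, with the other LP males at 3.12 to 3.51 CPM; mt-Co2 and mt-Atp6 lie in the nuclear copy and had at most 219 and 163 counts in a library. The group of 3 NP females was too small for this test, so the high values of NP female 3 were not examined by it.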

How the results depend on the processing

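Diet calls of mitochondrial genes stayed at 0 for both sexes and for the interaction under every alternative run, with 0 to 0 over the fits that left out 1 library. For males against females the count of 3 became 5 with the DESeq2 Wald test, 0 without LP female 1, LP female 2, and NP female 3, and 0 to 6 when 1 library was left out. Leaving out 1 library moved the difference in mitochondrial share from -0.477 to 0.366 percentage points in males, from -3.66 to 1.21 in females, and from -3.40 to -2.0 for males minus females. Apart from leaving out 1 library, 116 of 127 alternative values were classed as the same as the main result. Among values for single genes, 82 kept their direction and side of the threshold, 7 were weaker, and 2 reversed. Among call counts and share differences, 34 stayed close to the main value, whatever their sign, and 2 moved. Without the 3 female libraries, LP against NP in females was 0.10 for mt-Atp6 and 0.00 for mt-Nd4 (log2). mt-Cytb lost its call in males against females with no filter on low counts (-0.42, adjusted p = 0.0571 by edgeR). Signs changed when 1 library was left out for mt-Rnr2 (-0.02 to 0.28) and mt-Co3 (-0.05 to 0.18) in males, for mt-Co2 (-0.93 to 0.09), mt-Atp6 (-0.85 to 0.23), and mt-Nd4 (-0.57 to 0.06) in females, and for mt-Co2 (-1.01 to 0.05), mt-Co3 (-0.91 to 0.08), and mt-Rnr1 (-1.08 to 0.15) in the interaction. The cause was not tested. With the replicate number as a block, 0 members were called for males, females (numbers 1 to 3 only), or the interaction; mt-Rnr2 was at 0.13 in males and mt-Co2 at -0.37 in females (log2), and no LP library of 3 in females and 1 of 5 in males correlated best with its own number. Depth does not limit the abundant members, whereas the tRNA genes and the genes inside the nuclear copy cannot be compared reliably at these counts.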

Other observations

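Levels of neighbouring or functionally paired members went together across male libraries. Log2 normalized levels correlated for mt-Nd5 and mt-Nd6, which lie on opposite strands (Pearson's r = 0.88, permutation p = 0.00103, adjusted 0.00154; Spearman's rho = 0.82, permutation p = 0.00585, adjusted 0.0100; n = 10 males), and r was 0.92 without the 2 libraries farthest from the median of mt-Nd5. Reads of mt-Nd5 and mt-Nd6 cannot be told apart by strand. Reads counted on either gene may come from the transcript of the other, so their correlation is not one between separate measurements. For mt-Cytb and mt-Co1, r was 0.89 (permutation p = 9.10e-04, adjusted 0.00154) and rho 0.81 (permutation p = 0.00730, adjusted 0.0109), with r = 0.78 without the 2 farthest. For mt-Rnr1 and mt-Rnr2, r was 0.77 (permutation p = 0.00794, adjusted 0.0106) and rho 0.77 (permutation p = 0.0133, adjusted 0.0178), with r = 0.44 without LP male 2 and LP male 3, so this relation rests on those libraries. For mt-Co3 and mt-Atp6, inside the nuclear copy, r was 0.77 (permutation p = 0.00991, adjusted 0.0108) and rho 0.67 (permutation p = 0.0394, adjusted 0.0430), with r = 0.51 without the 2 farthest. The adjustment covers 12 relations, the same 4 pairs in males, in females, and in all libraries. In females LP female 1, LP female 2, and NP female 3 stand apart from the other 5, so no value over all females or all libraries is given. Levels of these genes share their library, their scaling, and the overall mitochondrial share.

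The other marker lists were compared between the sexes, beside 19.5% of all genes called lower in males (19.6% without LP female 1, LP female 2, and NP female 3). Of 6 endothelial markers 0 were called by edgeR, with 1 at an unadjusted p under 0.05; without the 3 libraries 1 was called lower, Cdh5, a junction protein (-0.54, SE 0.17, edgeR adjusted p = 0.0213). Of 6 leukocyte markers 2 were called lower in males, C1qa (log2 fold change -0.81, SE 0.21, edgeR adjusted p = 0.00497) and C1qb (-0.64, SE 0.20, edgeR adjusted p = 0.0194), both subunits of complement component C1q made by macrophages; without those 3 libraries neither was called (-0.42, edgeR adjusted p = 0.0692, and -0.25, edgeR adjusted p = 0.284). Of the blood markers 1 was tested, Hba-a1, and was not called. None of the 7 adipose markers had enough counts in every library to be tested. Of 7 tested interferon-stimulated genes 0 were called between the sexes, also at an unadjusted p under 0.05; no count without the 3 libraries is given, since they were singled out by the low level of these genes. Of 6 tested glucocorticoid-responsive genes 3 were called lower in males; the 3 libraries are the lowest females for these genes too.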
